A study of Mus musculus with 31 samples.

Results

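The genes described here encode collagen chains and the proteins that cross-link, cleave and protect the collagen matrix, read in whole mouse liver. They were chosen by name. A gene was included when its name on the array was that of a collagen chain (Col, a number, the letter a and a number), one of Timp1 to Timp4, a name beginning with Lox, or Mmp followed by a number. These names cover 75 genes and 142 probes on the array. Of these, 58 genes with 82 probes passed the filter on dim spots, among 23968 genes with 36059 probes tested in all.

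Collagens are secreted triple-helical proteins that build fibrils, the sheets of basement membranes, or finer filaments. Lysyl oxidases cross-link collagen, matrix metalloproteinases cleave matrix proteins, and the TIMPs inhibit these proteinases. In the liver, fibrillar collagen is made mainly by hepatic stellate cells, the vitamin A-storing cells beside the sinusoids, once they have turned into myofibroblasts, and its build-up is fibrosis.

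The arrays compare livers without ChREBPβ, the shorter product of Mlxipl, and livers without both ChREBP isoforms with those of WT littermates. Total RNA from the livers of 31 male C57BL6/J mice was labeled with 1 dye and read on Agilent arrays, 1 mouse per array. The groups were 8 ChREBPβ-deficient mice with 8 WT littermates, and 7 total ChREBP-KO mice with 8 WT littermates of their own. ChREBPβ-deficient mice carry a deletion of the ChREBPβ-specific exon made with CRISPR/Cas9 in embryos, and total ChREBP-KO mice are Mlxipl-null. Both losses were present in all tissues and from conception, so neither is specific to hepatocytes or to matrix-producing cells. Every mouse was fasted for 24 hours and then refed for 18 hours with glucose at 20% in the drinking water. Age was not given in the labels used. The total ChREBP-KO mice are numbered 1, 2 and 4 to 8.

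All values are log2 signals after quantile normalization, a scale on which a step of 1 doubles the signal. A probe was called when its adjusted p from limma was under 0.05, and "rose" and "fell" are used for called probes alone. Between 34131 and 38612 spots per array met the authors' conditions for a detected spot, and the 7 or 8 arrays per group limit the precision. Probe positions are on mouse build mm9, and no annotation of that build was at hand to place them in exons or untranslated regions.

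The tissue label was checked with 10 hepatocyte markers, all of which were measured. Their mean level lay between 16.88 and 17.34 on the 31 arrays, and Alb, the most abundant of them, was the brightest probe on every array. The targeted gene was checked with Mlxipl probe A_55_P2119957 (chromosome 5, 135613705 to 135613764). Its signal ran from 14.88 to 15.33 (median 15.06) in WT littermates and from 14.40 to 14.84 (median 14.64) in ChREBPβ-deficient mice. In the other line it ran from 15.14 to 15.48 (median 15.25) in WT littermates and from 13.89 to 14.30 (median 14.11) in total ChREBP-KO mice. The knockout values lay below all WT values in both lines, with differences of -0.45 (limma adjusted p = 0.0152) and -1.16 (limma adjusted p = 8.05e-13). The other 2 Mlxipl probes did not both follow it. A_55_P2728555 was lower in total ChREBP-KO mice (-0.59, adjusted p = 0.00313) but not called in ChREBPβ-deficient mice (-0.46, adjusted p = 0.909), and A_55_P2045158 was called in neither line (-0.05 and -0.06).

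Among the 58 genes kept, levels covered a wide range. Col18a1, whose product carries the endostatin fragment and lies in liver basement membranes, read between 15.64 and 15.95 on all arrays. Mmp19, Col5a3, Col3a1, Timp2 and Timp3 had medians above 10 in total-line WT littermates, whereas many other probes read near 5, where spots are barely above background. Of the 82 probes, 54 passed on at least 26 arrays. The other 28 passed through at least 6 arrays of 1 group, so that a probe could enter because of the group in which it was brighter, and counts over the 82 probes are descriptions. No probe passed for 17 genes, which were Col4a3, Col6a4, Col6a5, Col6a6, Col9a3, Col10a1, Col24a1, Col25a1, Col28a1, Mmp3, Mmp9, Mmp10, Mmp13, Mmp16, Mmp20, Mmp21 and Mmp24.

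Total ChREBP-KO replicate 1 stood apart in this gene set before any group was compared. Replicate 1 had the highest value of all 31 mice for 31 of the 82 matrix probes (37.8%), against 4.85% of all probes. Replicate 4 came next with 7 of them (8.54%, against 4.37% of all probes), little more than total-line WT replicate 4 with 6 (7.32%, against 3.89%) and WT replicates 2 and 6 with 5 each. The genes highest in replicate 1 included the chains of collagen I, III and VI, Col4a1, Col4a2, Col5a1, Col5a2, Loxl1, Loxl2, Mmp2 and Timp2. Both mice also read high for Spp1, an osteopontin gene of bile duct cells and macrophages, at 13.44 and 12.65, and for Cygb, a stellate cell globin gene, at 12.61 and 12.22. The median local background on the array of replicate 4 was 33, against 15 to 21 on all other arrays, while replicate 1 had 17. At the other end, WT replicate 5 of the ChREBPβ line had the lowest value for 11 of the 82 probes (13.4%, against 3.06% of all probes), and WT replicate 3 of the total line for 9 (11%, against 3.74%). Total ChREBP-KO replicate 5 was lowest for 7 (8.54%, against 4.20%). Many results that rest on replicates 1 and 4 are therefore given with and without them, a choice made after their values were seen.

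**Figure D1:**
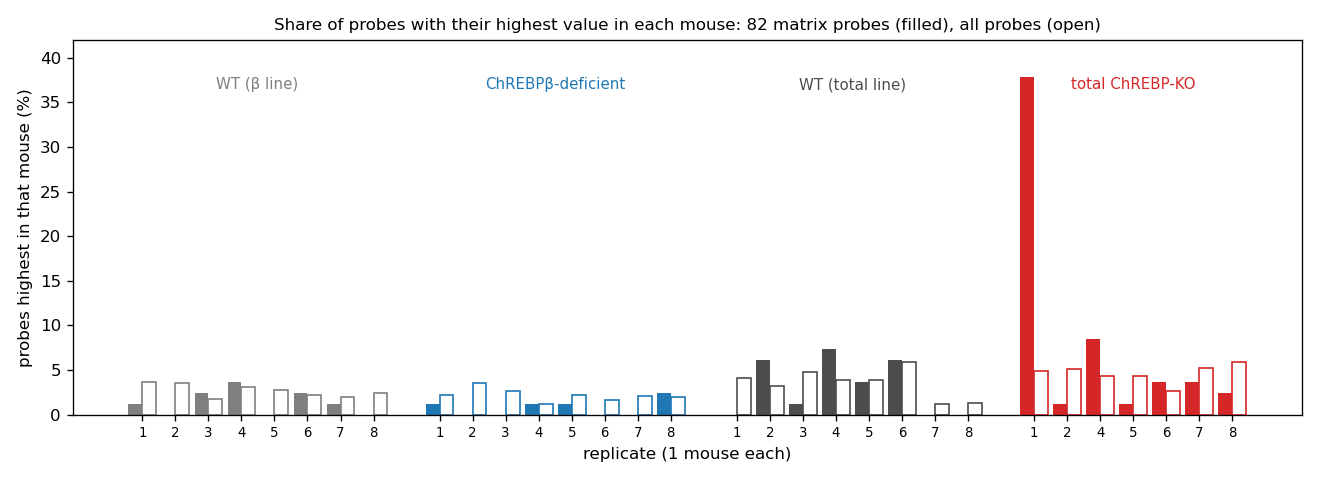
Share of probes (vertical axis, %) that had their highest value in each of the 31 mice (horizontal axis, replicate number within each group), for the 82 matrix probes (filled bars) and for all 36059 probes (open bars). Total ChREBP-KO replicate 1 holds 37.8% of the matrix probes and 4.85% of all probes.

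ChREBPβ-deficient mice showed no called matrix gene. With limma, 0 of 82 probes passed (0.00277% of all probes did), 1 probe had an unadjusted p under 0.05 (4.98% of all probes did), and the smallest adjusted p was 0.989. The exact Mann-Whitney test gave 3 probes at an unadjusted p under 0.05 (6.13% of all probes) and 0 after adjustment. Differences ran from -0.38 for Mmp12, a macrophage elastase, to 0.21 for Timp2, with a median of -0.03 over the 82 probes and -0.0007 over all probes, and 28 probes had a positive difference. Mmp12 read 6.83 in WT replicate 8 and 4.80 to 6.21 in the other littermates. Its difference was -0.0077 and -0.69 within the 2 days of scanning. The ChREBPβ-deficient mice and their WT littermates overlapped for each of the 82 probes, whereas 0.0222% of all probes had no overlap. For Col1a1, a chain of the most abundant fibrillar collagen, the signal ran from 7.54 to 9.60 (median 9.07) in WT littermates and from 8.16 to 8.98 (median 8.77) in ChREBPβ-deficient mice. The deficient mice all lay inside the range of their littermates, which was set at its low end by WT replicate 5. Col3a1 ran from 10.14 to 11.06 (median 10.73) and from 10.35 to 10.86 (median 10.67). Neither differed by an exact two-sided permutation test of the mice (Col1a1 -0.23, p = 0.377; Col3a1 -0.08, p = 0.528; both 0.528 after adjustment over 4 tests).

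In total ChREBP-KO mice, 5 of the 82 probes, from 5 genes, were called higher (6.10%, where 14.5% of all probes were) and 10, from 5 genes, were called lower (12.2%, where 14.6% of all probes were). The higher genes were Mmp2, Col5a2, Timp2, Col6a3 and Col8a2. The lower genes were Loxl4, Col5a3, Col27a1, Col15a1 and Mmp19. The median difference over the 82 probes was 0.10, against 0.01 over all probes, and 50 probes had a positive difference. The knockout mice and their WT littermates did not overlap for 6 probes (7.32%, where 7.4% of all probes had no overlap), and all 6 were lower. Neither share of calls was above that of all probes.

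The count of higher probes depended on single mice. It was 3 without total-line WT replicate 3, total ChREBP-KO replicate 1 or total ChREBP-KO replicate 4, and 9 without WT replicate 2 or total ChREBP-KO replicate 5. Without total ChREBP-KO replicates 1 and 4 together, 2 probes were called higher (12.7% of all probes were) and 11 lower (12.1% of all probes were). The 2 higher probes, those of Col5a2 and Mmp2, were also called with all mice, as were 8 of the 11 lower probes. The other 3 were the probes of Col4a1 (-0.31, adjusted p = 0.0157), Col8a1 (-0.55) and Col16a1 (-0.21, adjusted p = 0.0463). The median difference was then -0.08, with its sign changed, and 28 probes had a positive difference.

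**Figure D2:**
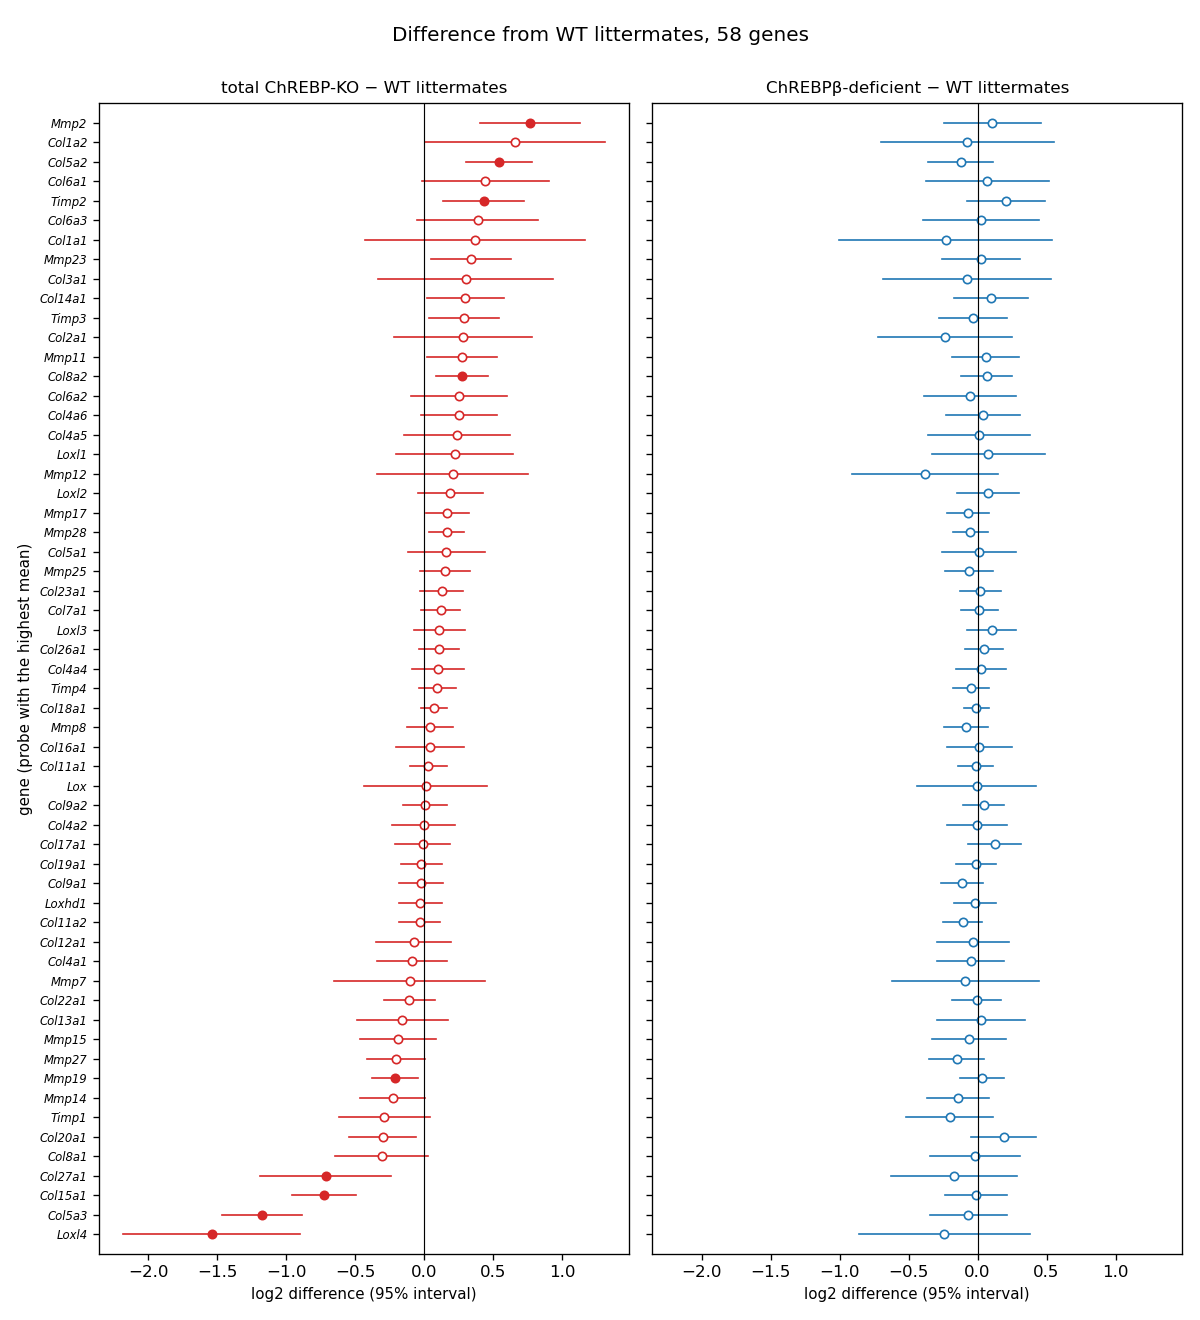
Log2 difference from WT littermates (horizontal axis) for 58 matrix genes (vertical axis, each by its probe with the highest mean) in total ChREBP-KO mice (left) and ChREBPβ-deficient mice (right). Points are limma estimates, lines are 95% confidence intervals and filled points have an adjusted p under 0.05; Loxl4 lies lowest at -1.54 and Mmp2 highest at 0.76 in total ChREBP-KO mice, and no point is filled for ChREBPβ-deficient mice.

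Fibrillar collagens form the load-bearing fibers of connective tissue. Of 11 genes on the array, 10 were measured by 19 probes, of which 1 was called higher and 4 lower in total ChREBP-KO mice. Collagen I and III, the main components of fibrotic scar, were not among them. The Col1a1 signal (A_52_P525107) ran from 8.14 to 10.42 (median 8.91) in WT littermates and from 8.28 to 11.74 (median 8.83) in total ChREBP-KO mice. Replicates 1 and 4 of the knockout read 11.74 and 10.96, the other 5 lay between 8.28 and 9.19, and WT replicate 2 was the highest littermate at 10.42. The difference of 0.37 was within the spread between mice (exact permutation p = 0.510, 0.528 after adjustment). It was -0.01 without replicate 1 and -0.39 without replicates 1 and 4. Within the first of the 2 scan days, which held both of these arrays, the difference was 0.76, and within the other it was -0.16.

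Col3a1, the single chain of collagen III, followed the same mice. Its signal ran from 9.96 to 12.43 (median 10.72) in WT littermates and from 10.105 to 12.96 (median 10.73) in total ChREBP-KO mice. Knockout replicates 1 and 4 (12.96 and 12.16) and WT replicate 2 (12.43) were the 3 highest, and the medians were nearly equal. The difference was 0.30 (exact permutation p = 0.526), -0.0013 without replicate 1, and -0.26 without replicates 1 and 4. Scan days gave 0.50 and 0.01. Col1a2, the partner chain of Col1a1, ran from 9.15 to 11.39 (median 9.99) in WT littermates and from 9.70 to 12.65 (median 10.38) in total ChREBP-KO mice. It was not called (0.66, adjusted p = 0.126), but without WT replicate 2 it was (0.84, adjusted p = 0.0358), and without knockout replicates 1 and 4 the difference was 0.04. Scan days gave 1.04 and 0.18.

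Collagen V chains, which nucleate and thin the fibrils of collagen I, moved in opposite directions. Col5a3 (A_51_P241995, chromosome 9, 20574592 to 20574651, minus strand) ran from 10.42 to 11.88 (median 11.39) in WT littermates and from 9.80 to 10.46 (median 10.23) in total ChREBP-KO mice. The 2 groups overlapped solely through WT replicate 5 at 10.42, and the next lowest littermate was at 11.08. The probe fell by 1.18 (standard error 0.14, limma adjusted p = 1.64e-07), a 2.26-fold lower signal, and the difference was -1.53 and -0.80 within the scan days. In the ChREBPβ line the same probe ran from 11.47 to 12.19 in WT littermates and from 11.61 to 12.03 in ChREBPβ-deficient mice, a difference of -0.07. The difference between the 2 lines' effects was -1.11 and was called (adjusted p = 0.000181). A second, dim Col5a3 probe (A_52_P503796) also fell, by 0.52 (adjusted p = 8.82e-05), with a range from -1.22 to -0.26 over signal, background and scale. Its difference between the effects, -0.54, lost its call with the 75th percentile of the median signal (-0.46, adjusted p = 0.0628).

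Col5a2 (A_55_P2104894, chromosome 1, 45431204 to 45431263, minus strand) was a dim probe that rose. It ran from 4.54 to 5.38 (median 4.89) in WT littermates, with 6 of 8 well above background, and from 4.99 to 5.84 (median 5.48) in total ChREBP-KO mice, all 7 well above background. Knockout replicate 1 was highest and replicate 5 lowest, and the groups overlapped. The rise was 0.54 (standard error 0.12, adjusted p = 0.000716), with 0.52 and 0.57 within the scan days and 0.43 without replicates 1 and 4. Its size ranged from 0.28 to 1.27 with the signal, background and scale used. Col5a1, the third chain, was not called (0.16, adjusted p = 0.419) and ran from 8.40 to 9.77 in total ChREBP-KO mice with its highest value in replicate 1. Without replicates 1 and 4 the Col5a1 difference was -0.13.

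Col27a1, a fibrillar collagen of cartilage and other matrices, fell on both of its probes. The brighter one (A_52_P480088, chromosome 4, 62995485 to 62995544, plus strand) ran from 7.61 to 9.05 (median 8.50) in WT littermates and from 6.88 to 8.36 (median 7.88) in total ChREBP-KO mice. Littermates spread over more than 1 log2 unit, with WT replicate 2 the lowest, and knockout replicate 7 was the lowest of all. It fell by 0.71 (standard error 0.23, adjusted p = 0.0195), with differences of -0.62 and -0.88 within the scan days, and the call was lost without knockout replicate 7 (-0.56, adjusted p = 0.0624). With the slide as a fixed block the difference was -0.52 (adjusted p = 0.208). The second probe (A_52_P628870) ran from 6.77 to 7.74 in WT littermates and from 5.45 to 6.47 in total ChREBP-KO mice, with no overlap. It fell by 0.91 (adjusted p = 0.00651), and with the slide as a fixed block the difference was -0.81 (adjusted p = 0.0552). The remaining fibrillar genes Col2a1, Col11a1 and Col11a2 differed by between -0.03 and 0.28 and were not called. The highest of these values, that of Col2a1, was -0.17 without knockout replicates 1 and 4.

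Collagen IV is the network-forming collagen of basement membranes, and in the liver it also lines the sinusoids. Of 6 genes on the array, Col4a1, Col4a2, Col4a4, Col4a5 and Col4a6 were measured, and 0 of their 6 probes were called by limma in either knockout. Col4a1 (A_51_P124254, chromosome 8, 11199009 to 11199068, minus strand) ran from 9.61 to 10.04 (median 9.84) in total-line WT littermates and from 9.32 to 10.48 (median 9.67) in total ChREBP-KO mice. Knockout replicates 1 and 4 lay above all littermates at 10.48 and 10.16, and 4 of the other 5 knockout mice read 9.67 or less. The difference was -0.09 (adjusted p = 0.636), and without replicates 1 and 4 it was -0.31 and called (adjusted p = 0.0157). Col4a2 differed by -0.004 (adjusted p = 0.985).

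Both genes did differ between the WT littermates of the lines. In the ChREBPβ line, Col4a1 ran from 9.15 to 9.83 (median 9.39) in WT littermates and from 9.22 to 9.59 (median 9.35) in ChREBPβ-deficient mice. Total-line littermates were higher by 0.45 for Col4a1 (adjusted p = 0.00938) and by 0.50 for Col4a2 (adjusted p = 0.00162). Col4a2 (A_51_P491350, chromosome 8, 11448840 to 11448899, plus strand) ran from 9.15 to 9.49 (median 9.29) in ChREBPβ-line littermates and from 9.29 to 10.13 (median 9.84) in total-line littermates. The groups overlapped through total-line WT replicate 2 alone, at 9.29. The differences were 0.58 and 0.31 within the scan days for Col4a1, and 0.52 and 0.48 for Col4a2. The 2 sets of WT littermates came from separate lines, so line, litter and any difference in husbandry cannot be told apart.

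Across the 82 probes, 5 were called higher and 1 lower in total-line than in ChREBPβ-line littermates (7.32%, where 17% of all probes were called), with a median difference of 0.03. Beside the collagen IV pair these were Col7a1, Col5a3 and both probes of Col15a1. Col7a1, the collagen of anchoring fibrils, ran from 6.26 to 6.67 (median 6.49) and from 6.60 to 6.96 (median 6.81) in the ChREBPβ-line and total-line littermates. The ranges overlapped only at their ends, and the difference was 0.32 (adjusted p = 0.00108), with 0.39 and 0.25 within the scan days. Col5a3 was lower in total-line littermates by a difference of -0.48 (adjusted p = 0.0146), with -0.21 and -0.75 within the scan days. With the slide as a fixed block it was not called (-0.65, adjusted p = 0.0617), and neither were the probes of Col15a1 (0.40 and 0.34, adjusted p = 0.121 and 0.11). For Col5a3 and Col15a1, the size of the knockout effect is therefore given against littermates of the same line alone.

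Collagen VI forms beaded filaments at the border of basement membranes and the interstitial matrix. Of 6 genes on the array, Col6a1, Col6a2 and Col6a3 were measured, by 7 probes. Col6a1, the brightest, ran from 8.77 to 10.05 (median 9.36) in WT littermates and from 9.18 to 11.07 (median 9.53) in total ChREBP-KO mice. Knockout replicates 1 and 4 read 11.07 and 10.93, and the other 5 lay between 9.18 and 9.61, inside the range of the littermates. The difference was 0.44 (adjusted p = 0.149), and -0.03 without these 2 mice. Col6a2 was not called either (0.25, adjusted p = 0.288), and its difference was -0.083 without these 2 mice. The probes of Col6a3 gave different results. Its brightest probe (A_52_P479262) was not called (0.39, adjusted p = 0.186) and had a difference of -0.08 without replicates 1 and 4. The dim probe A_55_P2719394 (chromosome 1, 92690484 to 92690543, minus strand) ran from 5.03 to 5.56 (median 5.30) in WT littermates and from 5.33 to 6.15 (median 5.69) in total ChREBP-KO mice. It rose by 0.33 (adjusted p = 0.0151), with 0.45 and 0.18 within the scan days, and the call was lost without replicate 1 (0.25, adjusted p = 0.0532) and without replicates 1 and 4 (0.23, adjusted p = 0.108).

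Multiplexins are collagens with interrupted helices that sit in basement membranes and release antiangiogenic fragments. Of the 2 genes, Col18a1 and Col15a1, the first was the brightest gene of the set and did not pass (0.07, adjusted p = 0.264). It ran from 15.65 to 15.94 (median 15.76) in WT littermates and from 15.67 to 15.95 (median 15.86) in total ChREBP-KO mice. Col15a1 (A_55_P2060386, chromosome 4, 47283786 to 47283845, plus strand) ran from 5.38 to 5.93 (median 5.59) in WT littermates and from 4.72 to 5.08 (median 4.96) in total ChREBP-KO mice. There was no overlap, and 4 of 7 knockout mice were well above background against 8 of 8 littermates. The probe fell by 0.73 (standard error 0.11, adjusted p = 1.15e-05), with -0.82 and -0.64 within the scan days. Its size depended on the signal, background and scaling used and ranged from -1.61 to -0.37, with the call kept. In the ChREBPβ line it ran from 4.71 to 5.72 in WT littermates and from 5.0 to 5.49 in ChREBPβ-deficient mice, and the difference between the effects was -0.72 and called (adjusted p = 0.00184). The second Col15a1 probe (A_52_P170882) was not well above background in any total ChREBP-KO mouse, so its decrease is given as a bound of at least 1.41-fold and not as further support. Both probes passed the filter through 1 group and read highest in total-line WT littermates, so they could enter because of that group. The Col15a1 calls, within the line and between lines, are therefore descriptions and not independent tests. Col15a1 differed between WT littermates as well, by 0.39 and 0.34 on its probes.

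The network and anchoring collagens on the array were Col7a1, Col8a1, Col8a2 and Col10a1, of which the first 3 were measured. Col8a1 and Col8a2 form the hexagonal lattices of vessel walls and the cornea. Col8a1, the brightest, ran from 7.61 to 8.34 (median 7.78) in WT littermates and from 6.79 to 8.51 (median 7.43) in total ChREBP-KO mice. Replicate 1 was again the highest of all mice, and the groups overlapped (-0.31, adjusted p = 0.168), but without replicates 1 and 4 the difference was -0.55 and called. Col8a2 (chromosome 4, 125991441 to 125991500, plus strand) was dim and ran from 4.44 to 5.21 (median 4.91) in WT littermates and from 4.98 to 5.32 (median 5.16) in total ChREBP-KO mice. It rose by 0.27 (adjusted p = 0.0263), with 0.46 and 0.07 within the scan days. Its call was lost without WT replicate 3 or 4 (adjusted p = 0.071 and 0.0636) and without knockout replicate 1, 4 or 6 (adjusted p = 0.0542, 0.0615 and 0.052). Normexp background correction also ended it, at 0.09 (adjusted p = 0.0798), as did a fit of the total line alone (adjusted p = 0.0542), a fixed block for the slide (adjusted p = 0.0766) and removal of replicates 1 and 4 together (0.21, adjusted p = 0.132). Without WT replicates 2, 7 and 8 of the total line Col8a2 was not called either (0.28, adjusted p = 0.061). Col7a1 did not pass in total ChREBP-KO mice (0.12, adjusted p = 0.204).

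FACIT collagens lie on the surface of fibrils and link them to other matrix. Of 9 genes on the array, Col9a1, Col9a2, Col12a1, Col14a1, Col16a1, Col19a1, Col20a1 and Col22a1 were measured by 10 probes, and 0 were called by limma in either knockout. In total ChREBP-KO mice their differences ran from -0.30 to 0.30. Col16a1, the brightest, ran from 8.64 to 9.13 (median 8.87) in WT littermates and from 8.61 to 9.69 (median 8.72) in total ChREBP-KO mice. Replicates 1 and 4 lay above the littermates at 9.69 and 9.43, and without replicates 1 and 4 the difference changed from 0.04 to -0.21 and was called. Col20a1 was not called in either line (-0.30, adjusted p = 0.0572, and 0.19). The transmembrane collagens Col13a1, Col17a1 and Col23a1, which anchor cells to matrix, differed by between -0.16 and 0.13 and were not called. Col13a1, the brightest of them, ran from 7.69 to 8.40 (median 8.10) in WT littermates and from 7.39 to 8.37 (median 8.0) in total ChREBP-KO mice. Col26a1, placed in no other group, read between 5.22 and 5.78 in the total line and was not called (0.11, adjusted p = 0.267).

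Lysyl oxidases oxidize lysines of collagen and elastin so that the chains can be cross-linked. All 5 genes were measured, by 8 probes, and limma called 3 of these probes, all of Loxl4, as lower in total ChREBP-KO mice. Its brightest probe (A_55_P2044143, chromosome 19, 42667320 to 42667379, minus strand) ran from 6.68 to 7.59 (median 7.09) in WT littermates and from 5.06 to 5.90 (median 5.55) in total ChREBP-KO mice. Every knockout mouse lay below every littermate. It fell by 1.54 (standard error 0.31, adjusted p = 0.000352), a 2.91-fold lower signal, and scan days gave -1.55 and -1.54. Other treatments of signal, background and scale gave -2.08 to -1.04. The second probe (A_66_P107231, chromosome 19, 42668733 to 42668792) fell by 1.77 (adjusted p = 0.000328), a 3.42-fold lower signal that ranged from -2.49 to -1.08 over the same treatments, again with no overlap. On the third (A_52_P342526) no knockout mouse was well above background, so it passed the filter through 1 group and could enter because of that group. Its decrease is given as a bound of at least 1.25-fold (adjusted p = 0.026), as a description and not as further support. That call was lost without WT replicate 6 or knockout replicate 4 (adjusted p = 0.0509 for each), without knockout replicates 1 and 4 (adjusted p = 0.0837), with normexp correction (-0.15, adjusted p = 0.0888) and with the 75th percentile of the median signal as scale (-0.28, adjusted p = 0.194).

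In the ChREBPβ line, Loxl4 was spread widely within both groups. The brightest probe ran from 5.52 to 8.08 (median 6.90) in WT littermates and from 5.77 to 7.53 (median 6.23) in ChREBPβ-deficient mice. The lower mice of both groups thus reached the level of the total ChREBP-KO mice, and the difference was -0.24 (95% confidence interval -0.86 to 0.38). The difference between the lines' effects was -1.30 and -1.54 on the 2 brighter probes and was called for both (adjusted p = 0.0409 and 0.033). Both calls were lost with normexp correction (-0.81 and -0.87, adjusted p = 0.0782 and 0.0914), with the 75th percentile of the median signal as scale (-1.23 and -1.44, adjusted p = 0.0591 and 0.0511) and without knockout replicates 1 and 4 (-1.34 and -1.50, adjusted p = 0.0586 and 0.0618). They were lost too without WT replicates 2, 7 and 8 of the total line (-1.32 and -1.60, adjusted p = 0.0721 and 0.0546), and the brightest probe lost its call without the filter (-1.31, adjusted p = 0.0557). For the brightest probe this call was lost when 1 of 15 arrays was left out. These were WT replicates 1, 2, 3 and 4 and ChREBPβ-deficient replicates 2, 7 and 8 of the ChREBPβ line, and WT replicates 1, 3, 5 and 8 and knockout replicates 4, 5, 7 and 8 of the total line, with values from -1.31 to -1.13 and adjusted p up to 0.0708. For the second probe it was lost without WT replicate 1, 3 or 4 or ChREBPβ-deficient replicate 2, 7 or 8 of the ChREBPβ line, or knockout replicate 4 or 5 of the total line (adjusted p up to 0.0581).

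The other lysyl oxidases did not pass. Lox, the founding member, was dim and ran from 4.76 to 6.84 (median 5.12) in WT littermates and from 4.77 to 6.28 (median 5.20) in total ChREBP-KO mice. WT replicate 2 was the highest of all mice and knockout replicate 1 came next. The difference was 0.01 (adjusted p = 0.981), -0.15 without knockout replicate 1 and 0.23 without WT replicate 2, so its sign is not determined. Loxl2 ran from 7.37 to 7.78 (median 7.52) in WT littermates and from 7.30 to 8.45 (median 7.57) in total ChREBP-KO mice, with its highest values in replicates 1 and 4 (0.19, adjusted p = 0.237). Without these replicates the Loxl2 difference was -0.0089. Loxl1 and Loxl3 differed by 0.22 and 0.11, or by -0.12 and -0.00045 without knockout replicates 1 and 4. Loxhd1 matched the name rule but encodes a protein of inner ear hair cells that is no lysyl oxidase. It read between 6.72 and 7.30 in the total line and did not differ (-0.03, adjusted p = 0.834).

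Matrix metalloproteinases formed the largest group, with 21 genes on the array. The 13 measured were Mmp2, Mmp7, Mmp8, Mmp11, Mmp12, Mmp14, Mmp15, Mmp17, Mmp19, Mmp23, Mmp25, Mmp27 and Mmp28, read by 14 probes, of which 1 was called higher and 1 lower in total ChREBP-KO mice. Mmp2 (chromosome 8, 95376840 to 95376899, plus strand), a gelatinase of stromal cells, ran from 5.12 to 6.14 (median 5.53) in WT littermates and from 5.73 to 7.23 (median 6.08) in total ChREBP-KO mice. Replicates 1 and 4 read 7.23 and 7.03, replicate 8 was at 6.40, and the other 4 knockout mice lay inside the range of the littermates, in its upper part. It rose by 0.76 (standard error 0.18, adjusted p = 0.00141), a 1.70-fold higher signal. Without replicates 1 and 4 the rise was 0.44, scan days gave 1.07 and 0.39, and the processed signal gave 1.13. In the ChREBPβ line the difference was 0.11, but the difference between the effects was not called (0.66, adjusted p = 0.0699).

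Mmp19, a proteinase of basement membrane proteins, was the brightest of the group. Its probe A_55_P2495403 (chromosome 10, 128237761 to 128237820, plus strand) ran from 12.82 to 13.41 (median 13.05) in WT littermates and from 12.66 to 13 (median 12.82) in total ChREBP-KO mice. The groups overlapped, with WT replicates 5 and 6 standing highest. It fell by 0.22 (adjusted p = 0.0463), with -0.03 and -0.40 within the scan days, so that the decrease was seen on 1 day. The call was lost when 1 of 14 arrays was left out. In the total line these were WT replicates 5 to 8 and knockout replicates 1, 4, 7 and 8, with values from -0.21 to -0.17. In the ChREBPβ line they were WT replicates 3, 7 and 8 and ChREBPβ-deficient replicates 1, 5 and 6, and the adjusted p was at most 0.112. It was also lost without knockout replicates 1 and 4 (-0.16, adjusted p = 0.199), when the total line was fitted alone, and with a fixed block for the slide (adjusted p = 0.0917). Fits without the filter (adjusted p = 0.0665) and without WT replicates 2, 7 and 8 of the total line (adjusted p = 0.0724) did not call Mmp19 either. Its second probe was not called (-0.12, adjusted p = 0.221). Mmp14, which activates the product of Mmp2 at the cell surface, was not called (-0.23, adjusted p = 0.141), and the remaining metalloproteinases differed by between -0.21 and 0.34.

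TIMPs bind and inhibit the metalloproteinases, and all 4 were measured. Timp2 (A_52_P540219, chromosome 11, 118163146 to 118163205, minus strand) ran from 10.53 to 11.27 (median 10.99) in WT littermates and from 10.74 to 12.18 (median 11.16) in total ChREBP-KO mice. Replicates 1, 4 and 6 of the knockout lay above the littermates at 12.18, 11.80 and 11.46, and the other 4 lay among them. It rose by 0.43 (standard error 0.14, adjusted p = 0.0226), with 0.52 and 0.31 within the scan days. The call was lost without WT replicate 3 (0.38, adjusted p = 0.0531) or 5 (0.37, adjusted p = 0.0517), without knockout replicate 1 (0.30, adjusted p = 0.0788) or 4 (0.36, adjusted p = 0.0655), and without both of these knockout mice (0.18, adjusted p = 0.276). It was lost as well when the total line was fitted alone (adjusted p = 0.092) and with a fixed block for the slide (0.43, adjusted p = 0.091). Its second probe was not called (0.15, adjusted p = 0.369). Timp1, the TIMP most used as a fibrosis marker, ran from 9.01 to 10.68 (median 9.27) in WT littermates and from 8.90 to 9.71 (median 9.12) in total ChREBP-KO mice. WT replicate 2 and knockout replicate 1 stood apart from their groups, and the difference was -0.29 (adjusted p = 0.189), but -0.12 without WT replicate 2 and -0.38 without knockout replicate 1. Timp3 and Timp4 differed by 0.29 and 0.09 and were not called.

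**Figure D3:**
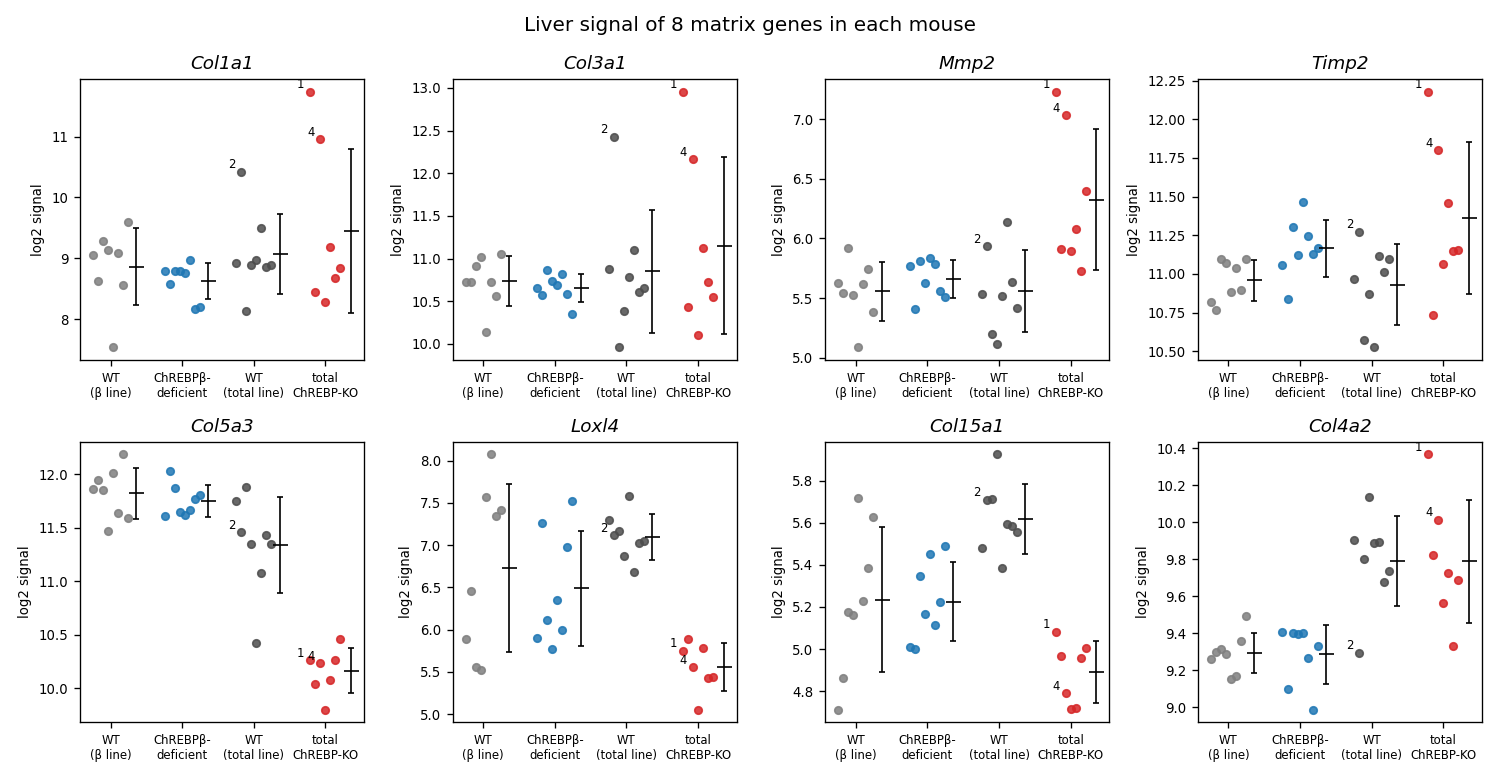
Log2 signal (vertical axis) of 8 matrix genes in each of the 31 mice (points) of the 4 groups (horizontal axis), with the mean and SD beside each group. Numbers mark total ChREBP-KO replicates 1 and 4 and total-line WT replicate 2, the 3 mice with the highest Col3a1 values (12.96, 12.16 and 12.43); the total ChREBP-KO mice lie below all WT littermates for Loxl4 and Col15a1.

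The difference between the effects in the 2 lines was called for 9 of the 82 probes (11%, where 15.1% of all probes were), 2 of them positive and 7 negative. They belong to Col5a3, Col15a1, Loxl4, Col5a2, Col6a3 and Col20a1. Without WT replicate 3 of the ChREBPβ line the count was 5. For Col5a2 the difference between the effects was 0.67 (adjusted p = 0.00506), or 0.65 and not called with fixed slide effects (adjusted p = 0.0941), and for Col20a1 it was -0.49, where total ChREBP-KO mice ran from 6.0 to 6.27 and ChREBPβ-deficient mice from 6.15 to 6.97. The Col20a1 call was lost in 19 of the 31 fits that left out 1 array, with values from -0.56 to -0.42 over all 31. These left out WT replicates 1, 2, 3 and 7 or ChREBPβ-deficient replicates 1, 2, 4, 5, 7 and 8 of the ChREBPβ line, or WT replicates 3, 4, 6 and 7 or knockout replicates 2, 4, 5, 6 and 7 of the total line. The Col6a3 probe A_55_P2719394 had a value of 0.44, and its call was lost in 9 of these fits, with the lowest value without total ChREBP-KO replicate 1 (0.36, adjusted p = 0.0643). The other 8 left out WT replicate 2, 3 or 7 or ChREBPβ-deficient replicate 6 of the ChREBPβ line, or WT replicate 1, 3 or 7 or knockout replicate 5 of the total line. With the slide as a fixed block neither was called (Col20a1 -0.48, adjusted p = 0.124; Col6a3 0.40, adjusted p = 0.089), nor were they without knockout replicates 1 and 4 (Col20a1 -0.50, adjusted p = 0.063; Col6a3 0.33, adjusted p = 0.103). Both calls were also lost without the filter (adjusted p = 0.0585 and 0.0534) and with the 75th percentile of the median signal (adjusted p = 0.087 and 0.0553). Col20a1 lost its call with a block for scan day (adjusted p = 0.0514), and Col6a3 with normexp correction (0.22, adjusted p = 0.0661) and the processed signal (0.71, adjusted p = 0.0607).

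Genes that work beside the collagens were counted by their probe with the highest mean, for which 14.4% of all genes were called higher and 14.8% lower in total ChREBP-KO mice. In ChREBPβ-deficient mice limma called 0 genes in each of these lists. Of 30 collagen biosynthesis genes, 22 were measured, 3 rose and 1 fell. P4ha1, a prolyl hydroxylase subunit that stabilizes the collagen helix, rose by 0.49 and P3h3, a prolyl 3-hydroxylase, by 0.35. Adamts14, a procollagen N-proteinase, rose by 0.33, and Bmp1, the procollagen C-proteinase, fell by 0.33. This list was highest in knockout replicates 1 and 4, at 9.23 and 9.17, and without them 1 rose (P4ha1) and 3 fell. Of 30 matrix glycoproteins and proteoglycans, all measured, 9 rose and 2 fell, with a median difference of 0.21. The list stood at 9.61 and 9.47 in knockout replicates 1 and 4, at 8.84 to 9.19 in the other 5 and at 8.75 to 9.06 in WT littermates. Without these 2 mice 4 rose and 2 fell, with a median of 0.05. Postn, a matricellular protein of activated fibroblasts, rose by 0.91 (0.59 without them) and Ogn, a small leucine-rich proteoglycan, by 0.78 (0.51 without them). Nid2, which links laminin to collagen IV, fell by 0.86 (adjusted p = 2.57e-05) and Fn1, the fibronectin made by hepatocytes and stromal cells, fell by 0.46 (adjusted p = 2.45e-05).

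Among 25 genes of TGF-β and PDGF signaling, 24 were measured, 3 rose and 3 fell. The receptors Tgfbr1 and Tgfbr2 fell by 0.57 (adjusted p = 1.45e-08) and 0.52 (adjusted p = 0.0192), and the inhibitor Smad6 fell by 0.31. Ltbp4, which holds latent TGF-β in the matrix, rose by 0.40, Tgfb2 by 0.38 and Pdgfd by 0.32. The list was highest in knockout replicates 1 and 4, at 9.18 and 9.06, and without them 0 rose and 3 fell. In this list 6 genes were called higher in total-line than in ChREBPβ-line WT littermates, where 7.79% of all genes were called higher and 17.1% in either direction. The largest differences were those of Ctgf, a matrix-associated growth factor gene, at 1.69, and Thbs1, which activates latent TGF-β, at 0.83.

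Fewer cells of a type and less RNA per cell cannot be told apart in whole liver. Marker levels are therefore given beside the collagens, as the mean log2 signal of each list. All 18 stellate cell markers were measured, with Ecm1 the most abundant, and 5 rose in total ChREBP-KO mice. They were Reln (0.80, adjusted p = 8.43e-05), Cygb (0.56), Colec11 (0.50), Ecm1 (0.40) and Adamtsl2 (0.35). Without knockout replicates 1 and 4, Reln (0.68) and Ecm1 (0.35) were still called higher, whereas Cygb (0.22), Colec11 (0.38) and Adamtsl2 (0.21) were not, and Pdgfrb was called lower (-0.34). Lrat, the enzyme that esterifies retinol for storage, was not called (0.65, adjusted p = 0.0552). The list stood at 8.94 to 9.35 in WT littermates. The lowest of these was WT replicate 2, whose Col3a1 of 12.43 exceeded that of knockout replicate 4. In the knockout mice it was 9.78 and 9.64 in replicates 1 and 4, and 9.34, 9.18, 9.36, 9.45 and 9.26 in replicates 2, 5, 6, 7 and 8. Of 11 myofibroblast markers, 9 were measured, and Postn and Tpm2 (0.75, or 0.66 and not called without replicates 1 and 4) rose, while Acta2, the smooth muscle actin gene, was not called (0.04, adjusted p = 0.804). Tagln was the most abundant of them and was not called either (-0.29, adjusted p = 0.173). The myofibroblast list stood at 9.27 to 9.51 in WT littermates, and in knockout replicates 1, 2, 4, 5, 6, 7 and 8 at 9.99, 9.44, 9.87, 9.84, 10, 9.20 and 9.42.

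None of 11 portal fibroblast and mesothelial, 12 sinusoidal endothelial and 12 Kupffer cell markers measured was called in total ChREBP-KO mice by limma. The most abundant gene of each list was Entpd2, Clec4g and Lyz2. Without knockout replicates 1 and 4, Entpd2 was called lower (-0.71, adjusted p = 0.000172; -0.42, adjusted p = 0.0604 with all mice). The portal list stood at 7.87 in WT replicate 2, the highest of all 31 mice, and at 6.56 to 7.25 in the other littermates. In knockout replicates 1, 4 and 6 it was 7.48, 7.44 and 7.67, and 6.73 to 7.21 in the others. The endothelial list ran from 9.82 to 10.14 in WT littermates and from 9.78 to 10.26 in knockout mice, the Kupffer cell list from 9.77 to 10.71 and from 9.98 to 10.53, and the neutrophil list from 7.71 to 8.66 and from 7.39 to 7.94. Of 9 neutrophil markers measured, Mpo fell by 0.21 and Lcn2, the most abundant, was not called (-1.79, adjusted p = 0.0558). Without these 2 mice Lcn2 was called lower (-2.43, adjusted p = 0.0168) and Mpo was not called (-0.19, adjusted p = 0.109). Epcam, of 7 cholangiocyte markers measured, rose by 0.97, with 8.79 in knockout replicate 5 and 5.49 to 6.56 in the other knockout mice, and by 0.57 without replicate 5. Spp1 was the most abundant, and this list reached 9.17 in knockout replicate 5 and 8.42 in replicate 1, against 7.45 to 8.01 in WT littermates. Replicate 5 was not among the mice with high collagen, whereas replicate 1 was. Exocrine pancreas markers (8 measured of 18, Cela1 the most abundant) stood at 11.19, 9.95 and 10.07 in WT replicates 2, 7 and 8 and at no more than 8.58 in the other littermates. WT replicate 2 was also the littermate with the highest Col1a1, Col3a1, Lox and Timp1, whereas replicates 7 and 8 were not. In this list Cela3b, Ctrb1, Cel and Ctrl fell by 1.45, 0.77, 0.80 and 0.51 in total ChREBP-KO mice, and the differences were -1.46, -0.70, -0.83 and -0.47, none of them called, without knockout replicates 1 and 4. Cela3b read 10.41, 8.49 and 8.81 in WT replicates 2, 7 and 8. It read 5.09 to 5.58 in the other littermates and 5.21 to 5.50 in the knockout mice. Ctrb1 read 11.94, 10.09 and 10.18 in the same WT replicates, 8.41 to 9.12 in the others and 8.54 to 8.97 in the knockout mice. Adipocyte markers (9 measured of 10) stood at 10 in knockout replicate 6 and at 9.32 and 9.49 in WT replicates 2 and 5. In total ChREBP-KO mice Car3, the most abundant, rose by 0.79 and was the only 1 called. The median difference over the adipocyte list was -0.07. Of the 10 hepatocyte markers 3 rose, Cyp2e1 by 0.69, Cps1 by 0.44 and Ttr by 0.17. The part of other cells in the matrix results was not tested.

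The promoters of the matrix genes were searched for 4 short motifs to show what they share beyond their names. RefSeq windows of build GRCm38.p6 (250 bases before to 50 after each start) were found for 43 of the 58 genes, as 49 windows. The motifs, read on both strands as exact letters, were the E-box CACGTG and the common motifs of promoters listed with their counts. Whole carbohydrate response elements were not searched for, so the counts do not tell whether a window holds one. CACGTG was in 1 of the 49 windows (2.04%) and in 7.15% of all 32851 windows. CCAAT was in 18 (36.7%, against 37.4% of all), GGGCGG in 29 (59.2%, against 35.7%) and TATAA in 11 (22.4%, against 24.9%). Of the 4 windows of genes that fell, 0 held CACGTG, 1 held CCAAT, 3 held GGGCGG and 0 held TATAA, and Mmp19 has no window. The transcription starts of Col4a1 and Col4a2, genes read in opposite directions on chromosome 8, lie 21 bases apart, and the 2 windows share 78 bases. A match describes letters in a window and not a bound site. The 250 bases before the start are printed for the 4 genes with at least 2 probes called lower, 1 of them at background in the knockout mice for Col15a1, on the strand of the gene, with matches to the motifs in capitals. They are Col5a3 (chr9:20815068-20815317, minus strand), Loxl4 (chr19:42612807-42613056, minus strand), Col15a1 (chr4:47207762-47208011, plus strand) and Col27a1 (chr4:63215162-63215411, plus strand).
Col5a3: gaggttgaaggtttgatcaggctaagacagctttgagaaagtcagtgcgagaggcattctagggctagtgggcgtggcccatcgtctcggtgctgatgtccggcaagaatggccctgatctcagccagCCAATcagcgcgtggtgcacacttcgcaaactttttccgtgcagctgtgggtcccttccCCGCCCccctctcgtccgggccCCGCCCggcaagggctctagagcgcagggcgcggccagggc
Loxl4: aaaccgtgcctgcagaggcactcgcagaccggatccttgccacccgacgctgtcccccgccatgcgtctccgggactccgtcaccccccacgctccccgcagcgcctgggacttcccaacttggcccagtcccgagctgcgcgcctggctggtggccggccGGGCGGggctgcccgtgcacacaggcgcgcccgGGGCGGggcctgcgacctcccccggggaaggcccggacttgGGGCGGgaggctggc
Col15a1: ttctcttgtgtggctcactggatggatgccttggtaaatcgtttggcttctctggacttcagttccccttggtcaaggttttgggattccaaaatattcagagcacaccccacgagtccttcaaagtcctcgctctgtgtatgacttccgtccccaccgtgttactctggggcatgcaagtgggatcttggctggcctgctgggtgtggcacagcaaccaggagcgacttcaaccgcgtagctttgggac
Col27a1: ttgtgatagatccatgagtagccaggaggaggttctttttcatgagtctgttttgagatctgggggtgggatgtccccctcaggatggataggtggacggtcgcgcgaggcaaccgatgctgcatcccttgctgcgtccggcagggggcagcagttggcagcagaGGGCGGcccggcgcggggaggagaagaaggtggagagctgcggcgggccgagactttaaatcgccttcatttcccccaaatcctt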

How the data were processed

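The authors deposited the intensity of each spot, read with Agilent Feature Extraction 10.10.1.1 and not normalized between arrays, and a table of quantile-normalized log2 values. Log2 of the median intensity was taken without background subtraction. The authors' weight marks a detected spot with 1, and a spot was kept if it had this weight in 26 or more of the 31 mice, or in 6 or more mice of a single group. Values were quantile normalized over 31 arrays and reduced to the median of spots sharing a probe name. The deposited log2 table has 50 missing values. Correlations between arrays were 0.980 to 0.999, and the 0.165% of kept spots that the scanner software marked as non-uniform or deviating were left in. Gene names came from the scanner files, joined by probe name, and 0 data columns lacked a sample.

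The 4 groups entered 1 model in limma 3.58.1 (R 4.3.3, data.table version 1.17.8), and the Benjamini-Hochberg adjustment ran over 36059 probes, with a threshold of 0.05. Contrasts were each knockout minus its littermates, one effect minus the other, and total-line minus ChREBPβ-line WT littermates. Col1a1 and Col3a1 were also tested by exact permutation of the mice. A bound on a fold change sets mice not well above background at the level of their background limit. The programs were tested on simulated data. Figures were drawn with matplotlib 3.10.9.

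The genes and lists were chosen with earlier results of these data known. Each measured gene is named in its role group. Values by group are given for the brightest gene of each role group, the up to 6 higher and 6 lower called genes with the largest change, up to 6 genes called in the other contrasts, and Col1a1, Col1a2, Col3a1, Col4a1, Lox, Mmp2, Timp1 and Timp2. From each other list up to 4 called genes are given, and others were named after their values were seen. A gene is given by its probe with the highest mean unless another is named. The lists cover collagen biosynthesis, matrix glycoproteins, TGF-β and PDGF signaling, and markers of stellate cells, myofibroblasts, portal fibroblasts with mesothelium, endothelium, Kupffer cells, neutrophils, cholangiocytes, pancreas, adipocytes and hepatocytes.

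Alternatives were other signals, scalings, background corrections and filters, the deposited values, blocks for slide, scan day and replicate number, each line alone, eBayes with trend and robust, a fold of 1.5, the Mann-Whitney test, and each array left out. Leaving out total ChREBP-KO replicates 1 and 4, these with WT replicate 2, or WT replicates 2, 7 and 8 was chosen after seeing the data.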

Additional observations from a re-analysis of the deposited data

Results flagged for a closer look

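In 27 matrix genes, each of the 4 groups was tested for a mouse far from the others of its group, 108 groups in all, of which chance flags about 1 in 20. This gave 7 values, 4 of them in WT replicate 2 of the total line, which was highest for Timp1 at 10.68, Col3a1 at 12.43, Lox at 6.84 and Col18a1 at 15.94. Timp1 was also far above its group in total ChREBP-KO replicate 1, at 9.71. WT replicate 5 of the ChREBPβ line was far below its group for Col6a3 at 8.22 and Col1a2 at 9.24.

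The effect in total ChREBP-KO mice differed from that in ChREBPβ-deficient mice, by limma's test of the difference, for 9 probes. The log2 differences between the effects were -1.11 and -0.54 for Col5a3, -1.30 and -1.54 for Loxl4, -0.72 and -0.71 for Col15a1, 0.67 for Col5a2, 0.44 for Col6a3 and -0.49 for Col20a1. The -0.71 comes from a probe that was not well above background in any total ChREBP-KO mouse, so its size is not determined.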

How the results depend on the processing

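The count called in ChREBPβ-deficient mice was 0 under each alternative except the Mann-Whitney test without adjustment, which gave 3. In brackets is the share of all probes called under the same setting. The 5 probes called higher in total ChREBP-KO mice (14.5%) were 2 when weight 1 was required on all arrays (17.9%). They were 3 with slide as a fixed block (11.5%), a replicate block (13.8%) or each line alone (12.4%). They were 1 by the adjusted Mann-Whitney test (10.6%) or with a fold of at least 1.5 (2.71%). Without knockout replicates 1 and 4 they were 2 (12.7%), and without these and WT replicate 2 they were 3 (12.9%). The 10 lower probes (14.6%) were 4 with weight 1 on all arrays (17.4%). The 9 differences between effects (15.1%) were 4 with the 75th percentile of the median signal as scale (13.2%). They were 1 with weight 1 on all arrays (19.7%) and 5 without knockout replicates 1 and 4 (14%). The 6 probes called between WT littermates (17%) were 2 with weight 1 on all arrays (19.9%) and 3 with slide as a fixed block (5.82%). They were 3 and 12 by the Mann-Whitney test with and without adjustment (10.4% and 27.8%), and 0 with a fold of at least 1.5 (2.54%). Fewer probes pass the stricter filter by construction, and for the other changes the cause was not tested.

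With each of the 31 arrays left out in turn, the counts were 0 in ChREBPβ-deficient mice, 3 to 9 higher and 8 to 12 lower in total ChREBP-KO mice, 5 to 10 for the difference and 6 to 7 between WT littermates. The median difference was 0.01 to 0.11 in total ChREBP-KO mice and -0.04 to -0.01 in ChREBPβ-deficient mice, and over the other alternatives -0.08 to 0.15 and -0.03 to -0.01. The total-line median changed sign without knockout replicates 1 and 4, to -0.08, and without these and WT replicate 2, to -0.02. With 1 array left out, Col1a1 ranged from -0.0133 to 0.56 and Col3a1 from -0.0013 to 0.53 in total ChREBP-KO mice. In ChREBPβ-deficient mice they ranged from -0.42 to -0.12 and from -0.16 to -0.03. Over the other alternatives, the total-line values ranged from -0.39 to 0.56 for Col1a1 and from -0.26 to 0.53 for Col3a1.

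Among the 38 results for named probes, the differences without knockout replicates 1 and 4 reversed for Col1a1 (-0.39), Col3a1 (-0.26), Col6a1 (-0.025), the brightest Col6a3 probe (-0.082) and Lox (-0.24). Without these and WT replicate 2 they reversed for Col1a1 (-0.20), Col3a1 (-0.039), Col6a3 (-0.041) and Lox (-0.022). Other probes also changed sign without replicates 1 and 4. Among them were Col2a1 (-0.17), Col5a1 (-0.13), Col6a2 (-0.083), Loxl1 (-0.12) and Loxl2 (-0.0089), not called, and Col16a1 (-0.21), called. Lox also reversed with normexp correction (-0.0063), no filter (-0.00197), slide as a random (-0.0059) or fixed block (-0.15) and a replicate block (-0.070), and ranged from -0.15 to 0.23 with 1 array left out. None of the reversed differences among the 38 results was called, and the cause was not tested. In total ChREBP-KO mice the adjusted Mann-Whitney test did not call Mmp2 (0.0559), Timp2 (0.149), Col6a3 (0.0738), Col8a2 (0.0738), Mmp19 (0.12) and the brighter Col27a1 probe (0.0559), with adjusted p in brackets. Of 1771 repeats of the 38 results for named probes, 1582 kept their direction and their side of the threshold. Correlations of mice with the same replicate number ran from -0.16 to 0.53 (median 0.18) in the ChREBPβ line, where 3 of 8 were the best of their mouse, and from -0.21 to 0.24 (median -0.02) in the total line, where 1 of 7 was. With that replicate block 11 probes were lower (13.9% of all probes were), 7 differed between effects (15% of all probes did), and the medians were 0.07 and -0.03. It ended the calls of Timp2 (0.38, adjusted p = 0.0572) and Col8a2 (0.21, adjusted p = 0.0582), and those of the differences for Col20a1 (-0.44, adjusted p = 0.0538) and Col6a3 (0.43, adjusted p = 0.0519).

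The comparison of WT littermates could not be estimated with a replicate block, and it and the difference were not run for each line alone. The difference was not run with the Mann-Whitney test. The exact permutation test was repeated where a setting gives other values. Dim probes near 5 carry little signal over background, so their size of change depends on its treatment. Without the filter, all 142 probes gave 5 higher (3.52%, against 8.43% of all 56605 probes) and 9 lower (6.34%, against 9.07%) in total ChREBP-KO mice and 0 called in ChREBPβ-deficient mice.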
